A study of Mus musculus with 12 samples.

Results

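The chemokine ligand genes Ccl3, Ccl4, Ccl5, Xcl1, Cxcl2, Cxcl10 and Cxcl16 were taken by name from a table of raw read counts of sorted mouse T cells. All 7 had a row among the 52459 genes of the table, and all 7 were among the 16218 genes that passed a filter on low counts and were tested. RNA sequencing gave 12 libraries in 6 groups of 2. The groups were γδ T cells of wild-type (WT) mice on a methionine- and choline-deficient (MCD) diet, γδ T cells of WT mice on the control (Ctl) diet, CD4+ T cells of γδTCR-/- mice (KO) on the MCD diet, CD4+ T cells of KO mice on the Ctl diet, CD4+ T cells of WT mice on the MCD diet and CD4+ T cells of WT mice on the Ctl diet. All mice were 7 weeks old when the diets began and ate them for 6 weeks. The study concerned steatohepatitis, a fatty liver disease with inflammation, which the MCD diet brings about in mice. The labels name no tissue, strain or sex and not the gene deleted in the KO mice, and KO mice gave CD4+ T cells only. They also leave unsaid whether the 2 libraries of a group are from different mice, so the p-values reflect the spread between libraries, which may be technical.

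Chemokines are small secreted proteins that guide leukocytes by binding G protein-coupled receptors on their surface. Activated T cells and NK cells make the CC ligands Ccl3, Ccl4 and Ccl5, which draw monocytes and effector T cells to inflamed tissue, and the ligand Xcl1, which draws cross-presenting dendritic cells through Xcr1. The CXC ligands are better known from myeloid, endothelial and stromal cells: Cxcl2 draws neutrophils through Cxcr2, Cxcl10 is induced by interferon and draws T cells through Cxcr3, and Cxcl16 is made as a membrane-bound protein whose receptor Cxcr6 marks T cells of the liver.

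Total counts were 17035638 to 23203603 per library, of which 40.8% to 56.8% came from mitochondrial genes. That share was 52.7% and 51.1% in KO Ctl libraries, against 43.9% and 41.1% in KO MCD libraries. It was 40.8% to 43.9% in WT CD4+ libraries and 53.8% to 56.8% in γδ libraries. Genes with at least 10 counts numbered 8989 and 10125 in γδ MCD libraries, against 11903 to 13402 in the others. The part of these differences in the comparisons below was not tested. Levels are given as CPM, the counts of a gene relative to the scaled library size, and 3 counts corresponded to 0.13 to 0.248 CPM. Cd4, the co-receptor of helper T cells, read 632 to 1448 CPM in the 8 CD4+ libraries and at most 4.29 CPM in the 4 γδ libraries, while Trdc, the constant gene of the δ chain, read 538 to 733 CPM in γδ libraries and at most 7.93 CPM in CD4+ libraries. Trdc was low in CD4+ T cells of both genotypes, so it does not check the genotype. The γδ libraries stood apart from the others and from each other: Pearson's r of log2 CPM between replicates, across genes, was 0.732 in γδ MCD and 0.807 in γδ Ctl, against 0.84 to 0.863 in the CD4+ groups. In the γδ libraries 14 macrophage and Kupffer cell genes summed to 1751 and 2522 CPM in γδ MCD and 974 and 1862 CPM in γδ Ctl libraries, against 16.96 to 68.7 CPM in CD4+ libraries.

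Of the 7 genes, 3 lie together on chromosome 11 in GRCm38. Ccl3 spans chr11:83647844-83649355 on the minus strand, Ccl4 lies 13229 bp away at chr11:83662584-83664683 on the plus strand, and Ccl5 lies 117326 bp from Ccl3 at chr11:83525778-83530518 on the minus strand. Cxcl16 is on the same chromosome at chr11:70453983-70459984. Cxcl2 (chr5:90903871-90905938) and Cxcl10 (chr5:92346638-92348889) share chromosome 5, and Xcl1 is at chr1:164931644-164935527. Xcl1, Cxcl10 and Cxcl16 each overlap a gene on the other strand (Gm20743, Art3 and Zmynd15), and whether the counting used strand is not given in the sources used here.

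The RefSeq promoter table (GRCm38.p6, 250 bases before to 50 after the gene start) held Ccl3, Xcl1, Cxcl2 and Cxcl10. Ccl4, Ccl5 and Cxcl16 were not matched. Of these promoters, 3 are shown because Ccl3 had the largest of the 7 fold changes between diets in KO CD4+ T cells, Cxcl2 was high in 1 library alone, and Cxcl10 was lower on the MCD diet in γδ libraries. Capitals mark matches, on either strand, to the NF-κB consensus, the interferon-response type motif (GAAA, any 2 bases, GAAA) or the AP-1 type motif TGANTCA. The regions are chr11:83649329-83649628 (minus strand) for Ccl3, chr5:90903649-90903948 (plus strand) for Cxcl2 and chr5:92348840-92349139 (minus strand) for Cxcl10, written 5′ to 3′.
Ccl3: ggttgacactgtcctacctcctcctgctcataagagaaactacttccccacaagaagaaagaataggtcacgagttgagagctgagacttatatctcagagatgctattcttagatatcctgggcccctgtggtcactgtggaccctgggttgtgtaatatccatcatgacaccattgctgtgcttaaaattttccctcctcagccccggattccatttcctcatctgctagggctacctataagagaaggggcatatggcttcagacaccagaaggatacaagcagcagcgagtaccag
Cxcl2: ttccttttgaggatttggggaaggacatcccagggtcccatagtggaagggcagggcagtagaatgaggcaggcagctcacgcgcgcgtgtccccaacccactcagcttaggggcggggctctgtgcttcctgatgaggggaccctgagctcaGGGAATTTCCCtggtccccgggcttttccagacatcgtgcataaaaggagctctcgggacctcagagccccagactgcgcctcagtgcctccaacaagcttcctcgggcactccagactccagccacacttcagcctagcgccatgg
Cxcl10: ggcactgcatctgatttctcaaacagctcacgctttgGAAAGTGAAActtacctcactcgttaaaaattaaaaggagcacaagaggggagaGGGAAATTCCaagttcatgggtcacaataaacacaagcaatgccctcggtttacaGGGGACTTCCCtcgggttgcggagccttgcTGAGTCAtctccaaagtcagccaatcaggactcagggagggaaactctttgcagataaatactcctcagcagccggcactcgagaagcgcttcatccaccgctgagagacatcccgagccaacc

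The Cxcl2 promoter held 2 overlapping NF-κB matches, 1 on each strand, which begin at -97 and -96 from the gene start. Cxcl10 held NF-κB matches beginning at -159, -104 and -103, the last on both strands and overlapping the one before, with the interferon-response type motif at -213 and TGANTCA at -74. The promoters of Ccl3 and Xcl1 held no match to these motifs, and none of the 4 held TATAAA. Among all 32851 promoters of the same length, 8.46% held the NF-κB consensus, 3.44% the interferon-response type motif, 7.81% TGANTCA and 13.6% TATAAA. A match is a stretch of letters and not evidence of binding.

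In the annotated 3′ UTRs, the AU-rich pentamer ATTTA, a motif known to shorten the life of cytokine mRNAs, occurred 5 times in Ccl3 and 11 times in Cxcl2. It occurred 3 times in Cxcl10, 2 times each in Ccl4 and Cxcl16, 1 time in Xcl1 and not at all in Ccl5. Cxcl2 alone among the 7 held the nonamer TTATTTATT, in 4 copies (overlaps counted), and it is shown in its surroundings because it sets this mRNA apart from the other 6. Among 11907 tested genes with an annotated 3′ UTR, 8.21% held the nonamer, as did 4.87% of the 5235 with a UTR of 300 to 1500 bases. The median over the 11907 was 1.30 pentamers per kilobase, against 12.2 in Ccl3, 7.36 in Cxcl2, 7.09 in Xcl1 and 6.62 in Ccl4. Cxcl10 had 3.01, Cxcl16 1.41 and Ccl5 0.
Cxcl2 3′ UTR site: gagagttcacTTATTTATTtatctatgta

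Ccl5, or RANTES, had the highest mean FPKM of the 7 in every group. It read 201 and 216 CPM in γδ MCD libraries, against 327 and 256 CPM in γδ Ctl libraries. In KO CD4+ T cells it read 128 and 166 CPM on the MCD diet, against 25.5 and 31.9 CPM on the Ctl diet. In WT CD4+ T cells it read 67.3 and 68.7 CPM on the MCD diet, against 27.6 and 31.4 CPM on the Ctl diet. From high to low the groups thus ran γδ Ctl, γδ MCD, KO MCD, WT MCD, WT Ctl and KO Ctl, and no neighbours in this order overlapped except WT Ctl and KO Ctl.

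Ccl5 was the one gene of the 7 to pass the test (edgeR's quasi-likelihood test, Benjamini-Hochberg adjusted over all 16218 genes, threshold 0.05), and it did so in 4 of the 10 comparisons and differences of differences. In KO CD4+ T cells it rose 5.12-fold on the MCD diet, with means of 147 ± 26.4 CPM on MCD and 28.7 ± 4.47 CPM on Ctl (SD, n = 2 each; log2 fold change 2.35, SE 0.35; edgeR adjusted p = 0.0356). In WT CD4+ T cells the ratio was 2.31, and the test was not passed (log2 fold change 1.2, SE 0.33; edgeR adjusted p = 1). Averaged over both genotypes, Ccl5 rose 3.70-fold on the MCD diet in CD4+ T cells (log2 fold change 1.78, SE 0.24; edgeR adjusted p = 0.0161). The difference between the 2 diet effects, KO minus WT, was 1.15 on the log2 scale (SE 0.47) and did not pass (edgeR adjusted p = 0.9998). A larger diet difference of Ccl5 in KO than in WT cells was therefore not shown.

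In γδ T cells Ccl5 stood lower on the MCD diet without overlap, with means of 209 ± 10.7 CPM on MCD and 291 ± 50.8 CPM on Ctl (SD, n = 2 each), a ratio of 0.716 that did not pass (edgeR adjusted p = 0.44). Ccl5 was 9.89-fold higher in γδ than in WT CD4+ T cells on the Ctl diet (log2 fold change 3.30, SE 0.36; edgeR adjusted p = 0.00114) and 3.07-fold higher on the MCD diet (log2 fold change 1.62, SE 0.34; edgeR adjusted p = 0.0272). The diet effect in γδ minus that in WT CD4+ T cells was -1.68 on the log2 scale (SE 0.47) and did not pass (edgeR adjusted p = 0.345). The comparisons of diet and of cell type share libraries: γδ Ctl and γδ MCD serve in both, as do the WT CD4+ groups. In bulk libraries such as these, fewer cells that express a gene and less RNA of it per cell cannot be told apart.

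The calls of Ccl5 were not equally firm. Each fit that left out 1 library was filtered anew and tested 18496 to 18692 genes, so the filter changed along with the library. The higher level in γδ than in WT CD4+ T cells on the Ctl diet was called in all 12 fits that left out 1 library. The rise on the MCD diet in KO cells was called in 9 of them and lost without KO Ctl replicate 1, KO Ctl replicate 2 or KO MCD replicate 2 (edgeR adjusted p = 0.269, 0.147 and 0.146). The rise averaged over genotypes was lost without KO Ctl replicate 1, WT Ctl replicate 2 or KO MCD replicate 2 (edgeR adjusted p = 0.0792, 0.0974 and 0.0614), and the higher level in γδ T cells on the MCD diet was lost without WT MCD replicate 1 or 3 (edgeR adjusted p = 0.189 and 0.177).

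**Figure D1:**
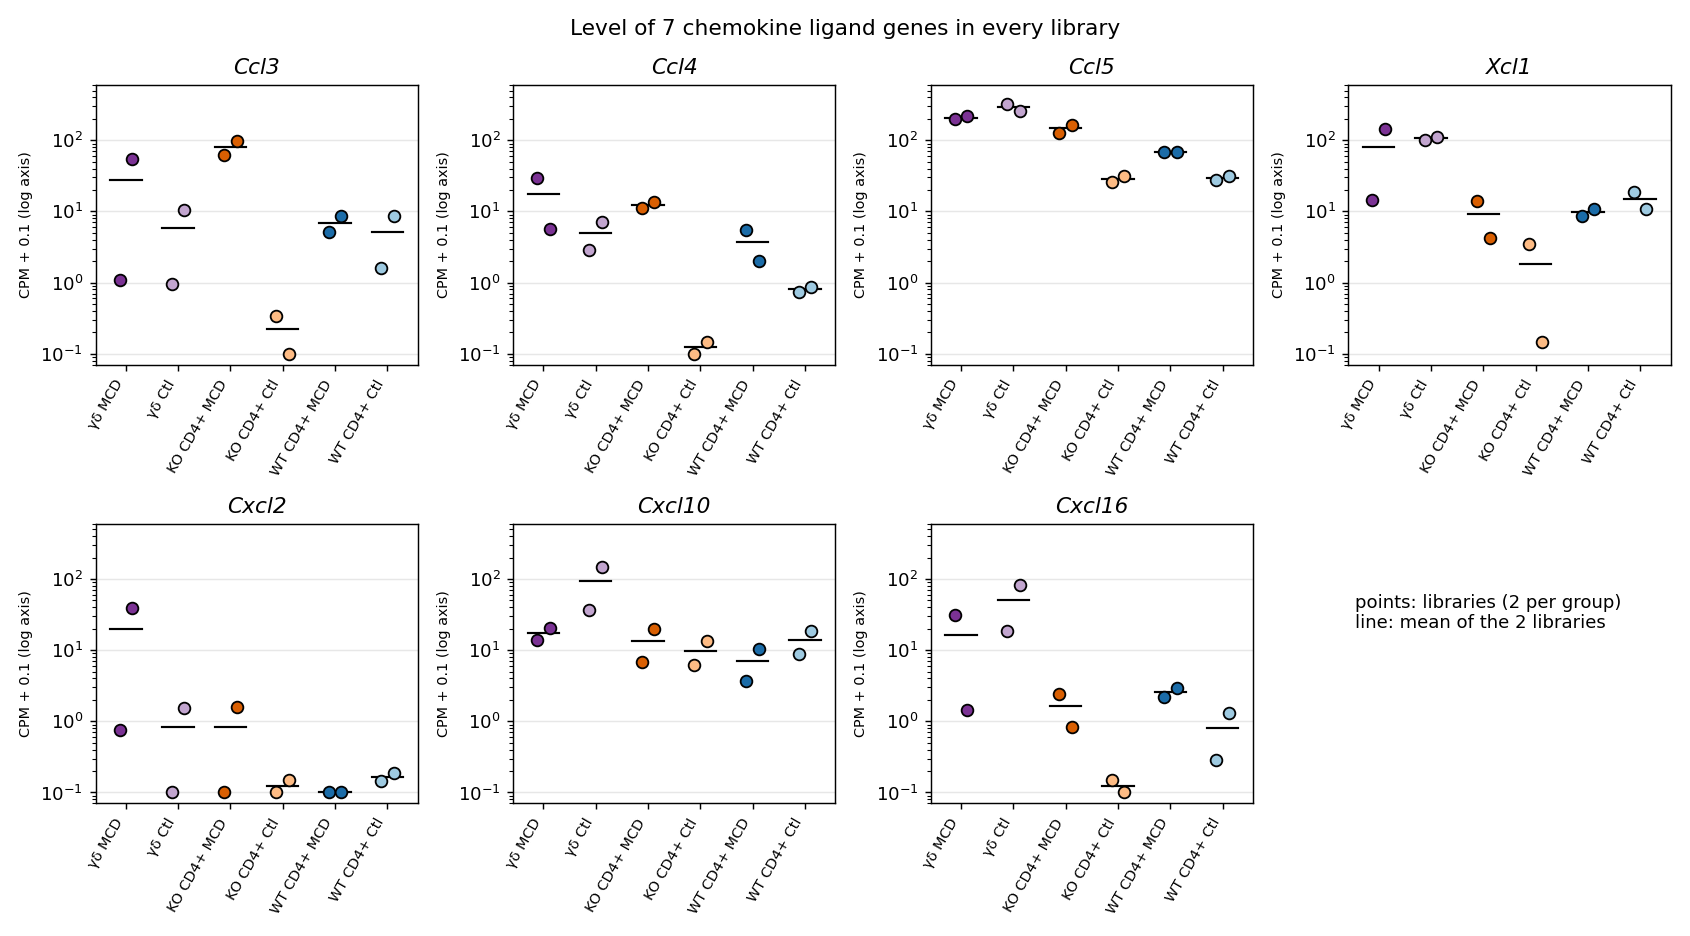
CPM plus 0.1 of each of the 7 genes on a log axis, by group; points are libraries, 2 per group, and lines are means. Ccl5 spans 25.5 to 327 CPM with replicates close together in every group, whereas the 2 γδ MCD libraries lie far apart for Ccl3, Xcl1, Cxcl2 and Cxcl16.

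Ccl3, also called MIP-1α, draws monocytes, NK cells and T cells. It read 0.991 and 53.6 CPM in γδ MCD libraries, against 0.865 and 10.5 CPM in γδ Ctl libraries. Its level in KO CD4+ T cells was 62.0 and 96.4 CPM on the MCD diet, against 0.244 and 0 CPM on the Ctl diet, which are 1346 and 2096 counts against 5 and 0. In WT CD4+ T cells it read 5.11 and 8.41 CPM on the MCD diet, against 1.52 and 8.58 CPM on the Ctl diet. KO MCD libraries were above all 10 others, KO Ctl libraries were below all others, and the 4 groups between them overlapped.

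The ratio of mean Ccl3 CPM between the diets in KO CD4+ T cells was 650 over the 5 counts of the Ctl libraries. It did not pass the test across all genes (log2 fold change 8.47, SE 2.21; edgeR adjusted p = 0.268). With the 8 CD4+ libraries alone, an alternative chosen after the data were seen, the same difference passed (log2 fold change 8.52; edgeR adjusted p = 0.00932). It also passed with DESeq2 (adjusted p = 1.63e-06) and with edgeR without a filter (adjusted p = 4.02e-07). So it did in edgeR with only the groups compared (adjusted p = 0.0364) or a replicate block in KO libraries (adjusted p = 0.000409). It did not pass with limma-voom, RLE scaling, a mean of at least 50 counts, mitochondrial genes left out or log2(FPKM + 1). In the 12 fits that left out 1 library its log2 fold change ran from 7.84 to 9.60. Ccl3 was 11.7-fold higher in KO than in WT CD4+ T cells on the MCD diet and 41.4-fold lower in KO on the Ctl diet, neither of which passed (edgeR adjusted p = 1 each). The diet effect in KO minus that in WT was 8.06 on the log2 scale (SE 2.53; edgeR adjusted p = 0.9998), and without γδ MCD replicate 2 or 4 it was 8.06 or 8.08. Averaged over both genotypes, the diet difference of Ccl3 was 4.44 on the log2 scale (SE 1.28; edgeR adjusted p = 0.402), and without γδ MCD replicate 2 or 4 it was 4.46 or 4.45.

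Ccl4, or MIP-1β, is the neighbour of Ccl3 and draws monocytes and T cells as well. It read 29.5 and 5.58 CPM in γδ MCD libraries, against 2.75 and 6.93 CPM in γδ Ctl libraries. Its level in KO CD4+ T cells was 11.1 and 13.4 CPM on the MCD diet, which are 240 and 291 counts, against 0 and 1 count on the Ctl diet. Its level in WT CD4+ T cells was 5.31 and 1.89 CPM on the MCD diet, against 0.644 and 0.78 CPM on the Ctl diet. In both genotypes of CD4+ T cells the MCD libraries were thus above the Ctl libraries.

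Over the 1 count of KO Ctl, the diet ratio of Ccl4 was 505 (exact 95% counting interval 90.2 to 19981; edgeR adjusted p = 0.201). In WT CD4+ T cells the ratio was 5.05 (edgeR adjusted p = 1), and the mean of both diet effects was 4.40 on the log2 scale (SE 1.22; edgeR adjusted p = 0.196). Without γδ MCD replicate 2 or 4, the log2 fold change of Ccl4 was 6.65 or 6.64 in KO cells and 4.42 in the average over genotypes. DESeq2 called Ccl4 in both (adjusted p = 0.00018 and 3.59e-05), and limma-voom called it in neither. The 2 neighbours did not run in parallel in the γδ MCD libraries: replicate 4 was the higher one for Ccl3 and replicate 2 the higher one for Ccl4. Over the 12 libraries, Pearson's r of log2 CPM was 0.67 between Ccl3 and Ccl4, 0.80 between Ccl4 and Ccl5 and 0.46 between Ccl3 and Ccl5. These correlations are descriptions over libraries that share 6 groups.

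Xcl1, lymphotactin, is made by CD8+ T cells, NK cells and γδ T cells. It read 14.4 and 144 CPM in γδ MCD libraries, against 101 and 111 CPM in γδ Ctl libraries. Its level in KO CD4+ T cells was 13.9 and 4.14 CPM on the MCD diet, against 3.36 and 0.0481 CPM on the Ctl diet. Its level in WT CD4+ T cells was 8.65 and 10.6 CPM on the MCD diet, against 18.4 and 10.9 CPM on the Ctl diet. Every γδ library but 1 was above all CD4+ libraries, and the exception, γδ MCD replicate 2, was below WT Ctl replicate 2.

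Xcl1 was 7.23-fold higher in γδ than in WT CD4+ T cells on the Ctl diet (log2 fold change 2.85, SE 1.27; edgeR adjusted p = 0.44) and 8.23-fold higher on the MCD diet (log2 fold change 3.03, SE 1.28; edgeR adjusted p = 0.192), and neither passed. The difference on the MCD diet turned on which γδ MCD library was kept: without replicate 2 it was 3.86 on the log2 scale, and without replicate 4 it was 0.57. In CD4+ T cells the ratio of MCD to Ctl was 5.29 in KO (edgeR adjusted p = 0.787) and 0.656 in WT (edgeR adjusted p = 1), and the difference between them did not pass (edgeR adjusted p = 0.9998). In KO cells the log2 fold change ran from 1.23 without KO MCD replicate 1 to 5.92 without KO Ctl replicate 1. Gm20743, annotated across Xcl1 on the opposite strand, had 1073 counts beside 2140 of Xcl1 in γδ MCD replicate 4 and 22 beside 175 in replicate 2, so the level of Xcl1 carries this uncertainty.

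Cxcl2, or MIP-2, is a neutrophil attractant better known from macrophages. It read 0.66 and 38.9 CPM in γδ MCD libraries, which are 8 and 579 counts, against 0 and 1.46 CPM in γδ Ctl libraries. CD4+ T cells of KO mice had 0 and 1.47 CPM on the MCD diet, against 0 and 0.0481 CPM on the Ctl diet. WT CD4+ T cells had 0 counts in both MCD libraries, which allows up to 0.147 and 0.139 CPM, against 1 and 2 counts in the Ctl libraries. One library, γδ MCD replicate 4, therefore held most reads of this gene.

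The ratio of Cxcl2 between diets in γδ T cells was 27.1 with overlapping libraries (log2 fold change 4.58, SE 2.72; edgeR adjusted p = 0.366), and without γδ MCD replicate 4 the log2 fold change was -0.13. Against WT CD4+ T cells on the MCD diet, where it was at 0, Cxcl2 was at least 138-fold higher in γδ T cells, computed against a floor of 3 counts per library (edgeR adjusted p = 0.118). That bound rests on γδ MCD replicate 4: without replicate 2 the log2 fold change was 8.63, and without replicate 4 it was 2.93. The 12 neutrophil and monocyte markers summed to 202 and 299 CPM in γδ MCD replicates 2 and 4, against 62.4 and 88.3 CPM in γδ Ctl libraries, with 6 of 12 detected in each γδ MCD library. Ly6g, Mpo, Elane, Retnlg, Ngp and Camp were at 0 in both γδ MCD libraries and in both γδ Ctl libraries. Of the 6 markers tested, 5 had fold changes above 0 between γδ MCD and γδ Ctl libraries, with a median of 3.62 on the log2 scale and none called by edgeR. S100a9 read 2.81 and 68.5 CPM in γδ MCD replicates 2 and 4, against 0 and 2.6 CPM in γδ Ctl libraries, and S100a8 read 2.48 and 14.2 CPM, against 0.0509 and 0 CPM. Csf3r read 92.1 and 85.2 CPM in γδ MCD libraries, against 8.49 and 17.2 CPM in γδ Ctl libraries, and Clec4e read 51.3 and 107 CPM, against 5.19 and 1.79 CPM. S100a8, S100a9 and Clec4e, like Cxcl2, were thus highest in γδ MCD replicate 4. Other markers of the list did not share this pattern. Csf3r was higher in replicate 2, and Ly6c2 averaged 37.1 CPM in γδ MCD against 56.3 CPM in γδ Ctl libraries. The macrophage list was lower in replicate 4 than in replicate 2 (1751 and 2522 CPM). The part of such cells in the level of Cxcl2 was not tested.

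Cxcl10, or IP-10, read 14.0 and 20.4 CPM in γδ MCD libraries, against 37.0 and 148 CPM in γδ Ctl libraries. CD4+ T cells of KO mice had 6.68 and 19.6 CPM on the MCD diet, against 6.05 and 13.2 CPM on the Ctl diet. CD4+ T cells of WT mice had 3.59 and 10.2 CPM on the MCD diet, against 8.74 and 18.4 CPM on the Ctl diet. The γδ Ctl libraries were above all 10 others, and the 4 CD4+ groups overlapped.

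In γδ T cells the Cxcl10 libraries of the 2 diets did not overlap, with a ratio of 0.186 (log2 fold change -2.42, SE 0.94; edgeR adjusted p = 0.222). The log2 fold change was -1.10 without γδ Ctl replicate 7 and -3.10 without γδ Ctl replicate 6. It was 6.80-fold higher in γδ than in WT CD4+ T cells on the Ctl diet (log2 fold change 2.76, SE 0.96; edgeR adjusted p = 0.31) and 2.50-fold higher on the MCD diet (edgeR adjusted p = 0.387). Neither passed, and the log2 fold change on the Ctl diet was 1.44 without γδ Ctl replicate 7. Sinusoidal endothelial cells are a known source of this ligand, and their 9 markers summed to 103 and 109 CPM in γδ MCD libraries, against 633 and 1207 CPM in γδ Ctl libraries. In γδ Ctl all 9 were detected in both libraries, and in γδ MCD 5 of 9. The library with the higher sum, γδ Ctl replicate 7, was also the one with more Cxcl10. Compared with replicate 6 it had higher macrophage (1862 against 974 CPM) and dendritic cell sums (192 against 140 CPM) as well. Its NK cell sum was lower (401 against 440 CPM). The macrophage list summed to 2522 and 1751 CPM in γδ MCD libraries, which had less Cxcl10. The part of any of these cells in the level of Cxcl10 was not tested.

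Cxcl16 read 30.7 and 1.34 CPM in γδ MCD libraries, against 18.6 and 83.1 CPM in γδ Ctl libraries. CD4+ T cells of KO mice had 2.35 and 0.736 CPM on the MCD diet, against 0.0488 and 0 CPM on the Ctl diet, which are 1 and 0 counts. CD4+ T cells of WT mice had 2.11 and 2.86 CPM on the MCD diet, against 0.184 and 1.21 CPM on the Ctl diet. In CD4+ T cells of either genotype the MCD libraries were above the Ctl libraries, whereas in γδ T cells the diets overlapped.

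The diet ratio of Cxcl16 was 63.7 in KO cells over 1 count (exact 95% counting interval 11.1 to 2553; edgeR adjusted p = 0.677) and 3.56 in WT cells (edgeR adjusted p = 1), and neither passed. It was 72.7-fold higher in γδ than in WT CD4+ T cells on the Ctl diet (log2 fold change 5.99, SE 1.76; edgeR adjusted p = 0.19). Without γδ MCD replicate 2 or 4, which are outside this comparison, its log2 fold change was 5.98 or 5.99. Among the libraries compared, its log2 fold change ran from 4.54 without γδ Ctl replicate 7 to 7.47 without WT Ctl replicate 3. The macrophage list, 14 of whose 14 genes were detected in γδ Ctl replicate 6 and 13 in replicate 7, was 974 and 1862 CPM in these libraries, against 61.0 and 47.5 CPM in WT Ctl CD4+ libraries. Cxcl16 is a gene of macrophages and dendritic cells as well, and their part in its level was not tested.

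**Figure D2:**
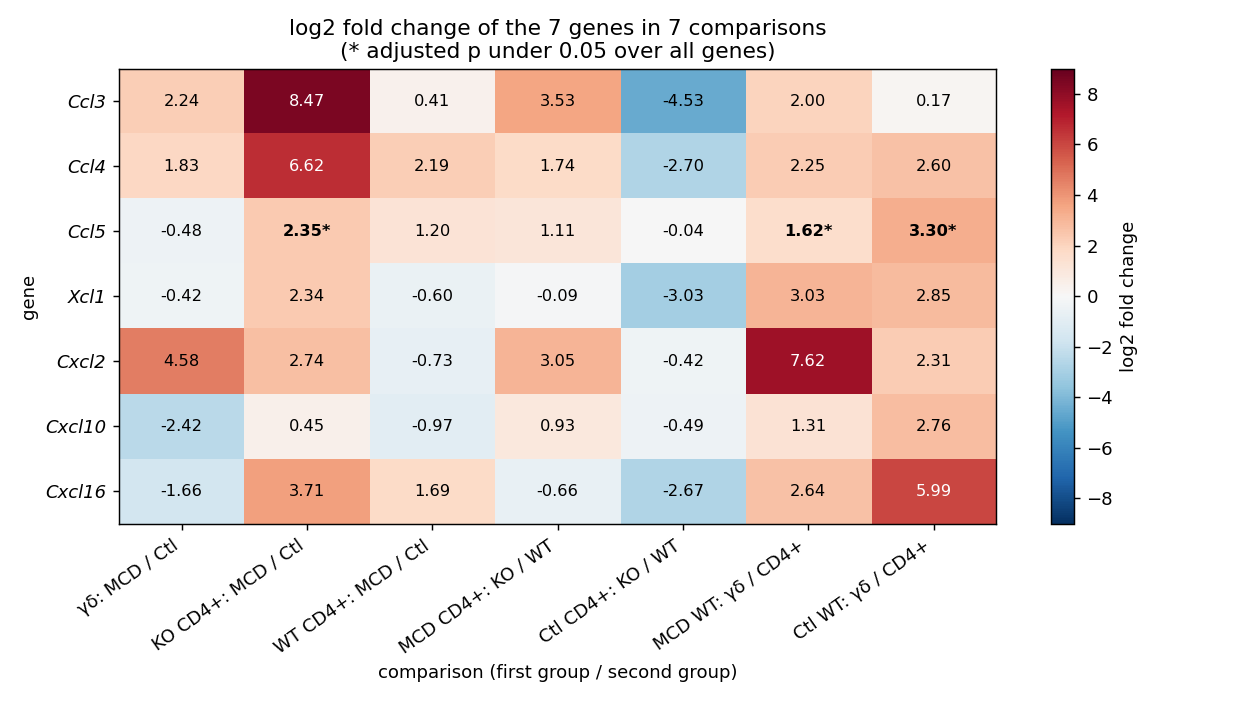
Log2 fold change, first over second group as named for each column, of the 7 genes in 7 comparisons from the fit of all 12 libraries, in colour and digits; asterisks mark an adjusted p under 0.05. Only the Ccl5 row carries asterisks, with 2.35, 1.62 and 3.30, while larger values such as 8.47 for Ccl3 do not pass.

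In KO CD4+ T cells all 7 fold changes were above 0 on the MCD diet, with a median of 2.74 on the log2 scale against 0.03 over all genes tested. Only Ccl5 was called by edgeR, where 0.0308% of the 16218 genes were called as higher. DESeq2 called Ccl3, Ccl4 and Ccl5 (266 genes in all), and limma-voom called none of the 7 (19 genes in all). Ccl3, Ccl4, Ccl5, Xcl1 and Cxcl16 were higher in both MCD libraries than in both Ctl libraries, where 20.8% of all genes were higher without overlap. The macrophage list summed to 68.7 and 33.4 CPM on MCD and to 50.2 and 31.9 CPM on Ctl, with C1qa and Timd4 at 0 in both MCD libraries and Fcgr1 at 0 in both Ctl libraries. The 8 NK cell markers summed to 80.8 and 5.98 CPM on MCD and to 9.36 and 11.3 CPM on Ctl, with Klra4 and Klra8 at 0 in both MCD libraries. All 6 NK markers tested had fold changes above 0 on MCD, with a median of 2.40 on the log2 scale and none called by edgeR. KO MCD replicate 1, with the higher NK sum, had more Xcl1 and Cxcl16 than replicate 2, and replicate 2 had more Ccl3, Ccl4 and Ccl5. The 6 dendritic cell markers summed to 18.3 and 37.5 CPM on MCD and to 8.09 and 18.3 CPM on Ctl, with 5 of 6 fold changes above 0, a median of 3.49 and none called by edgeR. The part of these cells in the differences between diets was not tested.

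In WT CD4+ T cells 4 of the 7 fold changes were above 0 on the MCD diet, with a median of 0.41 against 0 over all genes tested. None was called, as for all 16218 genes (0% called by edgeR). At an unadjusted p under 0.05, edgeR gave 1 of the 7, Ccl5, and 346 genes in all (2.13%), while DESeq2 called 40 genes and limma-voom 0, none of them among the 7. Ccl4, Ccl5 and Cxcl16 were higher without overlap, beside 16.7% of all genes, and Xcl1 and Cxcl2 lower, beside 17.2%. Cxcl2 had 3 counts in all 4 libraries together.

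In γδ T cells the MCD diet gave 3 fold changes above 0 and 4 below, with a median of -0.42 against -0.06 over all genes tested. None was called by edgeR, as for all genes (0%). At an unadjusted p under 0.05, edgeR gave 1 of the 7, Cxcl10, and 2839 genes in all (17.5%). DESeq2 called 2105 genes with Cxcl10 among them (adjusted p = 0.0456), and limma-voom called 63, none of the 7. Ccl5 and Cxcl10 were lower without overlap, where 22.1% of all genes were, and none of the 7 was higher without overlap.

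Between genotypes, KO libraries stood above WT for some of these genes on the MCD diet and below on the Ctl diet. On the MCD diet Ccl3, Ccl4 and Ccl5 were higher in KO than in WT CD4+ T cells without overlap (ratios of 11.7, 3.39 and 2.16), beside 15.9% of all genes. On the Ctl diet Ccl3, Ccl4, Xcl1 and Cxcl16 were lower in KO without overlap, beside 20.6% of all genes, and all 7 fold changes were below 0, with a median of -2.67 against -0.03 over all genes tested. Ccl5 had a log2 fold change of -0.04 there (SE 0.33; edgeR adjusted p = 1), the nearest to 0 of the 7. None of the 7 was called by edgeR on either diet, where 0% of all genes were called on MCD and 0.0247% on Ctl. At an unadjusted p under 0.05 there were 2 of the 7 on MCD (of 337 genes, 2.08%) and 4 on Ctl (of 653 genes, 4.03%), and DESeq2 (39 and 122 genes in all) and limma-voom (0 and 6) called none of the 7. Both genotype contrasts share their libraries with the diet contrasts in CD4+ T cells, so a low KO Ctl level enters the diet and the genotype difference alike. NK cell markers summed to 9.36 and 11.3 CPM in KO Ctl libraries, against 84.6 and 104 CPM in WT Ctl libraries, with a median log2 fold change of -2.22 over the 6 tested, and dendritic cell markers to 8.09 and 18.3 CPM, against 26.2 and 21.7 CPM. On the MCD diet NK cell markers summed to 80.8 and 5.98 CPM in KO libraries, against 95.9 and 43.1 CPM in WT libraries, and dendritic cell markers to 18.3 and 37.5 CPM, against 17.7 and 12.4 CPM. The part of these cells in the differences between genotypes was not tested.

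In WT mice all 7 fold changes were above 0 in γδ against CD4+ T cells on either diet, with medians of 2.76 on Ctl (-0.06 over all genes) and 2.25 on MCD (-0.30 over all genes). On each diet edgeR called Ccl5 alone, where 0.45% of all genes were called as higher on Ctl and 1.47% on MCD. DESeq2 called Ccl5, Cxcl10 and Cxcl16 on Ctl (917 genes in all) and Ccl5, Cxcl2 and Xcl1 on MCD (2887 in all). Limma-voom called Ccl5 alone on each (244 and 787 in all). Without a filter, edgeR called Ccl5, Cxcl16 and Xcl1 on Ctl and Ccl5, Cxcl2 and Xcl1 on MCD. With only the groups compared it called Ccl5 and Xcl1 on Ctl and none of the 7 on MCD. On the Ctl diet Ccl4, Ccl5, Xcl1, Cxcl10 and Cxcl16 were higher in both γδ libraries than in both CD4+ libraries, beside 20.1% of all genes. On the MCD diet Ccl4, Ccl5, Xcl1, Cxcl2 and Cxcl10 were, beside 14.5% of all genes. NK cell markers, several of which γδ T cells also express, summed to 281 and 119 CPM in γδ MCD libraries, against 95.9 and 43.1 CPM in WT MCD CD4+ libraries. They summed to 440 and 401 CPM in γδ Ctl libraries, against 84.6 and 104 CPM in WT Ctl CD4+ libraries. On the Ctl diet all 6 NK markers tested had fold changes above 0 with a median of 3.75 on the log2 scale and 2 called by edgeR, and on the MCD diet 5 of 6 did with a median of 1.29 and 2 called. Ncr1 read 64.9 and 59.0 CPM in γδ Ctl libraries and 0 in both WT Ctl CD4+ libraries, while Klra4 and Klra8 were at 0 in all 4 γδ libraries and most CD4+ libraries. The part of NK cells in these differences was not tested.

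Averaged over both genotypes of CD4+ T cells, Ccl5 was called by edgeR as higher on the MCD diet, as were 0.037% of all genes. DESeq2 called Ccl3, Ccl4 and Ccl5 (196 genes in all), and limma-voom called none of the 7 (8 genes in all). Ccl4 and Ccl5 were higher in all 4 MCD than in all 4 Ctl libraries, beside 2.54% of all genes. Neither difference of differences gave a call by edgeR among the 7 or among all genes (0%). At an unadjusted p under 0.05, 3 of the 7 stood out between the genotypes (Ccl3, Ccl4 and Ccl5, of 703 genes, 4.33%) and 1 between the cell types (Ccl5, of 1714 genes, 10.6%). DESeq2 called 71 and 645 genes, with Ccl3 between the genotypes (adjusted p = 0.00824) and Ccl5 between the cell types (adjusted p = 0.0197), and limma-voom called 1 and 0, none of the 7.

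Levels can be set against each other between genes only per length, for which the deposited FPKM values (fragments scaled by transcript length and library depth) were used. The 7 genes summed to 304 and 598 FPKM in γδ MCD libraries and 521 and 565 FPKM in γδ Ctl libraries. In KO CD4+ T cells the sums were 246 and 315 FPKM on the MCD diet and 33.5 and 36.7 FPKM on the Ctl diet, and in WT CD4+ T cells 97.9 and 108 FPKM on the MCD diet and 66.5 and 71.1 FPKM on the Ctl diet. The order of the sums therefore put KO MCD next to γδ T cells and KO Ctl last.

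Ccl5 took 37.1% to 84.6% of the summed FPKM, and Xcl1 exceeded it in γδ MCD replicate 4 and WT Ctl replicate 2. By mean share the gene after Ccl5 was Xcl1 in both γδ and both WT CD4+ groups, Ccl3 in KO MCD and Cxcl10 in KO Ctl. Xcl1 took 9.21% and 45.3% in γδ MCD libraries and 34.3% and 35.6% in γδ Ctl libraries. Ccl3 took 30.9% and 37.4% in KO MCD libraries, against 0.894% and 0% in KO Ctl libraries, and at most 15% in any other library. Xcl1 took 16% and 18.2% in WT MCD libraries, against 49.7% and 27.9% in WT Ctl libraries. KO MCD was thus the one group in which Ccl3 came next to Ccl5. Cxcl2 and Cxcl16 took at most 3.10% and 4.61% in any library.

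**Figure D3:**
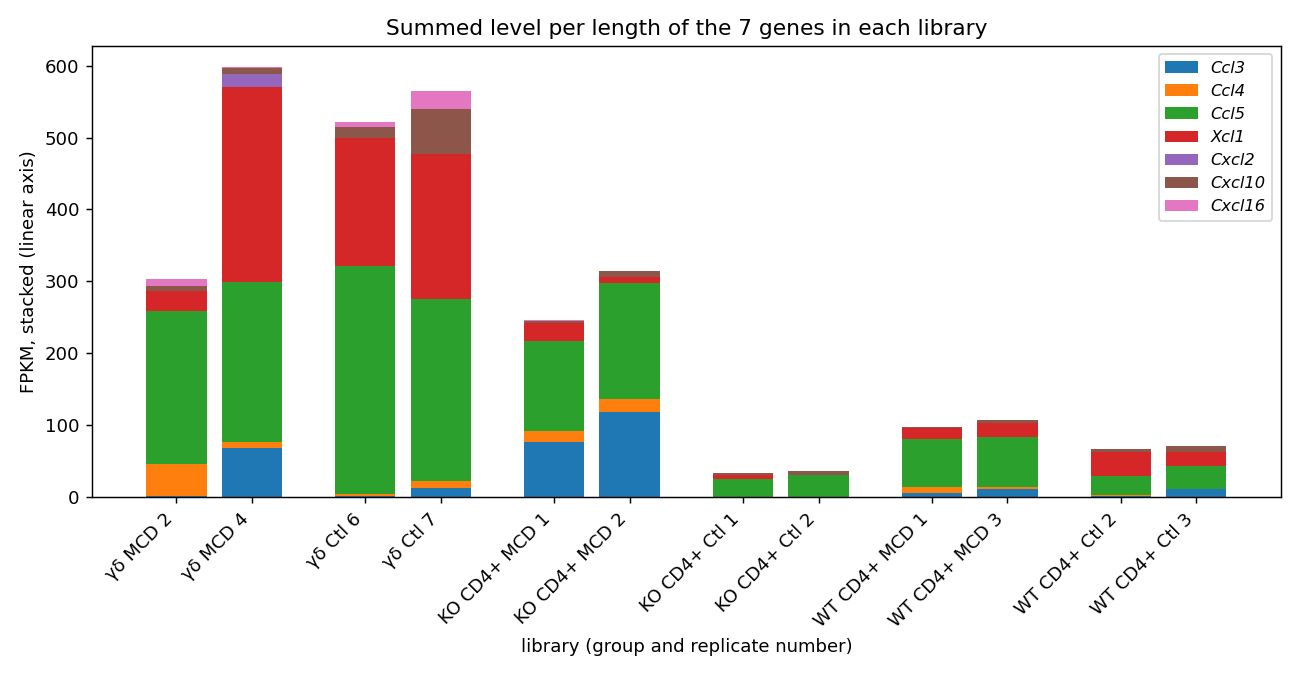
Summed FPKM of the 7 genes, stacked by gene on a linear axis, for each library named by group and replicate number. Ccl5 fills the largest part of every bar except those of γδ MCD replicate 4 and WT Ctl replicate 2, where Xcl1 is larger, Xcl1 adds to the γδ bars, and Ccl3 is prominent in the KO MCD bars.

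Among 38 chemokine ligand genes, chosen with earlier results of these data known, 18 were tested, the 7 included. Of the other 11, edgeR called Cxcl9 alone and in 1 comparison, 179-fold higher in γδ than in WT CD4+ T cells on the Ctl diet (log2 fold change 7.39, SE 1.56; edgeR adjusted p = 0.048). Limma-voom did not call it there, and over the 10 comparisons called Ccl6 and Ccl9 alone of the 11, both between γδ and CD4+ T cells on the MCD diet. DESeq2 called Ccl17, Ccl6, Ccl9 and Cxcl9 between these cell types on Ctl and Ccl25, Ccl6, Ccl9 and Cxcl9 on MCD, Ccl25 and Cxcl13 between the diets in γδ T cells, and Ccl17, Ccl22 and Ccl6 between the diets in KO CD4+ T cells and in the average over genotypes. It also called Ccl22 between the genotypes on Ctl and between their diet effects, and Ccl25 between the diet effects of the cell types. Cxcl9, an interferon-induced ligand of Cxcr3 like Cxcl10, read 136 and 3.63 CPM in γδ MCD libraries, against 172 and 361 CPM in γδ Ctl libraries. In CD4+ libraries it read 0.416 to 3.96 CPM. Cxcl9 and Cxcl10 were thus both highest in γδ Ctl replicate 7, but γδ MCD replicate 4, with little Cxcl9, was the higher one of its group for Cxcl10.

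Several myeloid ligands were high in the γδ MCD libraries. Ccl9 read 97.7 and 106 CPM there, against 28.9 and 16.6 CPM in γδ Ctl libraries, and Ccl6 read 62.9 and 28.6 CPM, against 1.37 and 11.6 CPM. Neither was called (edgeR adjusted p = 0.403 and 0.397). Ccl17 and Ccl22, ligands of Ccr4 made by dendritic cells, read 74.5 and 68.2 CPM in γδ MCD replicate 2 and 0 in replicate 4. Replicate 2 was also the γδ MCD library with more Ccl4 and Cxcl16. The 6 dendritic cell markers summed to 165 CPM in replicate 2 and 89.1 CPM in replicate 4, against 140 and 192 CPM in γδ Ctl libraries, and their part in these values was not tested. Ccl25, the Ccr9 ligand, read 0.66 and 4.97 CPM in γδ MCD libraries, against 32.5 and 22.6 CPM in γδ Ctl libraries (edgeR adjusted p = 0.174). Cxcl13, the B cell attractant, had 0 counts in both γδ MCD libraries, against 21.3 and 0.379 CPM in γδ Ctl libraries. These 2 genes were the ligands outside the 7 that DESeq2 called, and edgeR and limma-voom did not, between the diets in γδ T cells.

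**Figure D4:**
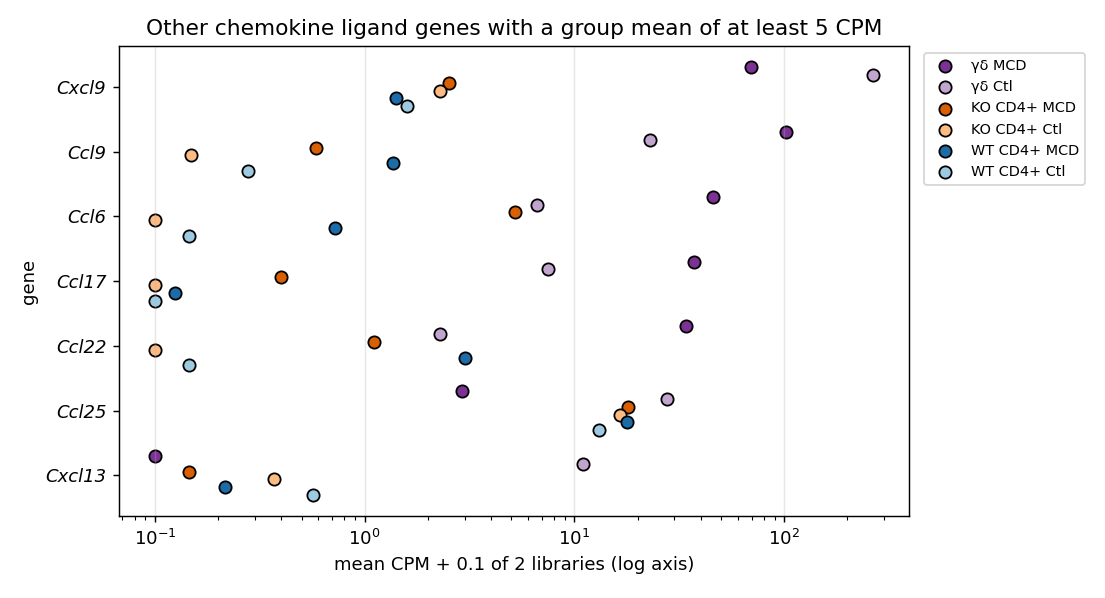
Mean CPM plus 0.1 of 2 libraries, on a log axis, of the 7 other ligand genes with a group mean of at least 5 CPM; colours are groups. Points of γδ groups lie to the right of CD4+ groups for Cxcl9, Ccl9 and Ccl17, and Ccl25 is lowest in γδ MCD.

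**Figure D5:**
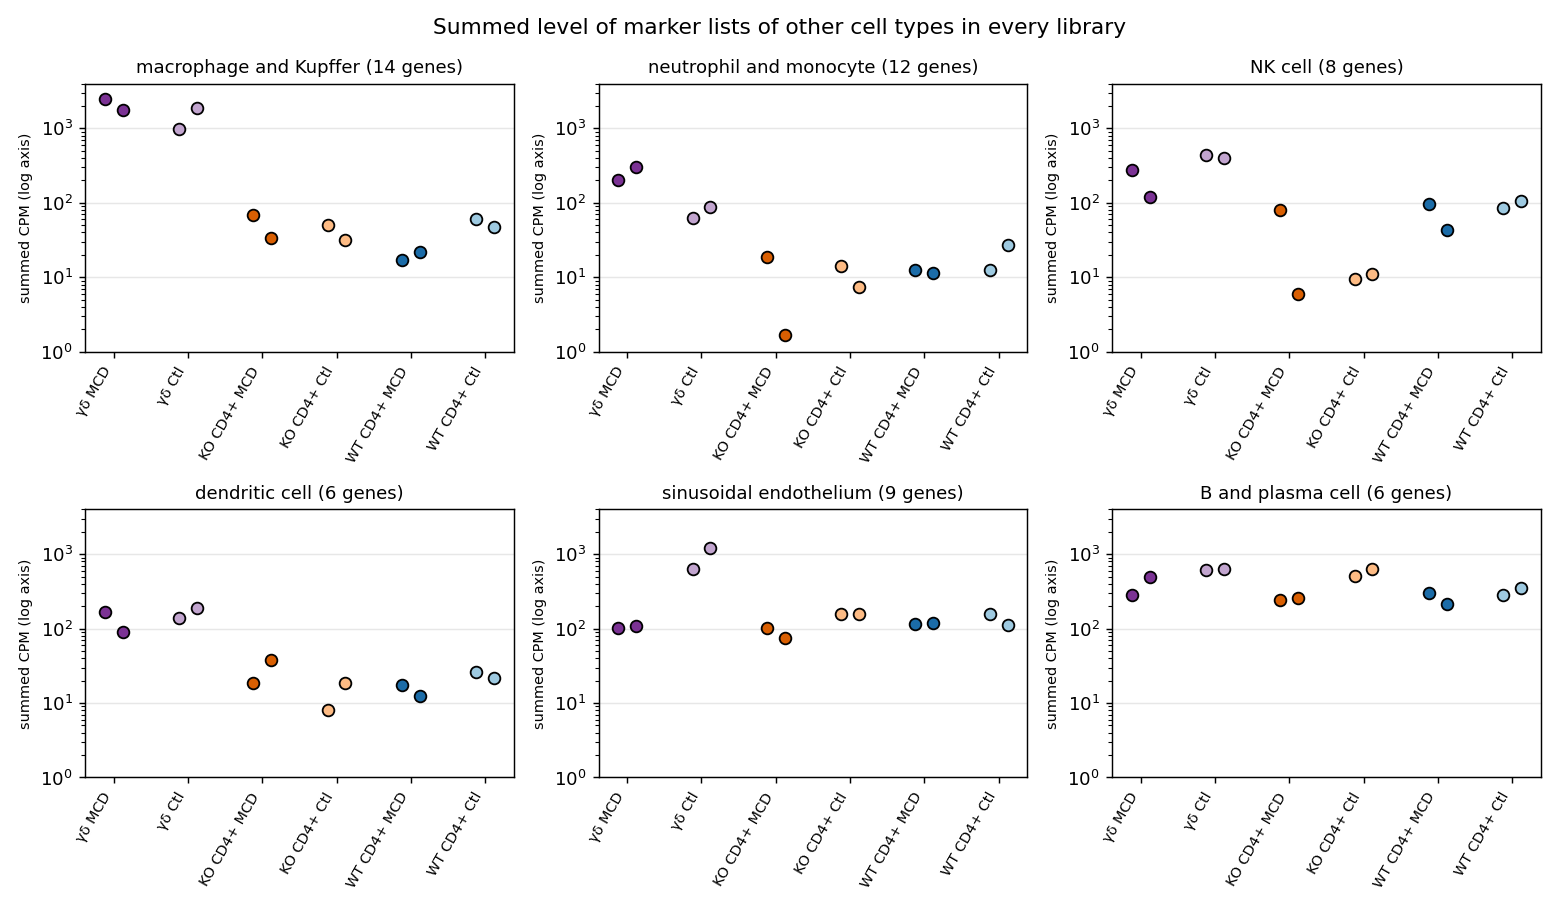
Summed CPM, on a log axis, of 6 marker lists of other cell types in each library, by group. The γδ libraries are highest for the macrophage, neutrophil and dendritic lists, and the endothelial sum of γδ Ctl (633 and 1207 CPM) is above that of γδ MCD (103 and 109 CPM).

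The receptor genes Ccr1, Ccr3, Cxcr2, Cxcr3, Cxcr6 and Xcr1 were tested, and edgeR called none of these 6 in any comparison. At most 3 had an unadjusted p under 0.05 in edgeR, between γδ and WT CD4+ T cells on the MCD diet. There 3551 of all 16218 genes did. DESeq2 called Xcr1 between the diets in KO CD4+ T cells (266 genes in all) and Cxcr6 between the genotypes on the Ctl diet (122 in all). Between γδ and CD4+ T cells it called Cxcr2 on the Ctl diet (917 in all) and Cxcr2 and Cxcr6 on the MCD diet (2887 in all). Limma-voom called Ccr1, Cxcr2 and Cxcr6 between γδ and CD4+ T cells on the MCD diet (787 genes in all) and no receptor in the other comparisons. Cxcr6, the receptor of Cxcl16, read 176 and 127 CPM in γδ MCD libraries, against 48.7 and 36.4 CPM in WT MCD CD4+ libraries (edgeR adjusted p = 0.0545). Xcr1 exceeded 30 CPM only in KO MCD replicate 2, at 39.8 CPM. Cxcr2 exceeded 10 CPM only in γδ MCD replicate 4 and γδ Ctl replicate 7, at 17.3 and 11.3 CPM.

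Of 16 regulators of chemokine transcription and mRNA, all were tested and edgeR called none in any comparison. At most 4 of 16 had an unadjusted p under 0.05 in edgeR, for diet in KO CD4+ T cells and in the average over genotypes. There 982 and 986 of all 16218 genes did. DESeq2 called Bhlhe40, Egr2 and Eomes between the diets in KO CD4+ T cells and in the average over genotypes (266 and 196 genes in all). It also called Bhlhe40 between the genotypes on the Ctl diet (122 in all), and Irf3 and Runx3 between γδ and CD4+ T cells on the MCD diet (2887 in all). Limma-voom called none in any comparison. In KO CD4+ T cells 10 of them had fold changes above 0 and 6 below on the MCD diet, with a median of 0.39 on the log2 scale. The smallest adjusted p belonged to Bhlhe40, a T cell activation factor, which read 161 and 89.8 CPM on the MCD diet, against 19.3 and 25.7 CPM on the Ctl diet (edgeR adjusted p = 0.0909). Eomes, a T-box factor of effector cells, read 13.8 and 36.2 CPM on MCD, against 0.146 and 1.06 CPM on Ctl (edgeR adjusted p = 0.695). Egr2, induced by receptor signals, read 22.3 and 25.2 CPM on MCD, against 0.731 and 3.08 CPM on Ctl (edgeR adjusted p = 0.738). Klf13, a factor known to bind the Ccl5 promoter, read 223 and 268 CPM on MCD, against 482 and 347 CPM on Ctl (edgeR adjusted p = 0.787). Nfkb1, which encodes an NF-κB subunit, read 85.2 and 112 CPM on MCD, against 143 and 156 CPM on Ctl (edgeR adjusted p = 0.873). Klf13 and Nfkb1 thus had lower means on the MCD diet, without a call. In γδ T cells Runx3 read 247 and 105 CPM on the MCD diet, against 93.6 and 67.5 CPM on the Ctl diet (edgeR adjusted p = 0.27).

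Likeness of pattern was measured by Pearson's r of log2 CPM over the 12 libraries among 7966 candidate genes, each averaging 5 CPM or more. The genes closest to Ccl5 were Tnfrsf1b (r = 0.95), Adgre4 (0.93) and Ahnak (0.93), and those closest to Ccl4 were Mdfic (0.93), Dnajc2 (0.92) and Maf (0.91). The closest to Ccl3 were Atr (0.89), Mbip (0.86) and Tti2 (0.86). Closest to Xcl1 were Ckb (0.94), Lrrk1 (0.93) and Sulf2 (0.92), to Cxcl16 Dync1i2 (0.94), Itpripl2 (0.92) and Cd48 (0.90), to Cxcl10 Copb2 (0.95), Gon7 (0.88) and Cd164 (0.87), and to Cxcl2 Kars (0.93), Ddx3x (0.92) and Myo5a (0.88). No 2 of the 7 genes shared a neighbour among these. Among the 7 themselves r ran from 0.14, between Ccl3 and Cxcl10, to 0.80, between Ccl4 and Ccl5, and Cxcl16 had an r of 0.79 with Ccl5. With 12 libraries that share 6 groups, these values are descriptions with no test.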

How the data were processed

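Per the labels' protocols, T cells of both kinds were FACS-sorted straight into a lysis reagent and their RNA was sequenced from Illumina libraries. Per the submitters' processing notes, bcl2fastq, STAR, featureCounts and DESeq2 were used on mm10 (GRCm38), and no versions are given. The authors deposited raw counts per gene, which were used for all tests, and FPKM values, which were used for shares between genes and as an alternative. Groups came from the labels; the library labelled D2-D1_GDT was taken as replicate 2. Of the genes on the lists, 1 is not reported here.

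Genes passing edgeR's filterByExpr (minimum count 10, minimum total 15; 16218 of 52459) entered a quasi-likelihood model of all 12 libraries, each group with its own coefficient (edgeR 4.0.16, R 4.3.3, TMM library sizes). Tests were 2-sided. P-values were adjusted by Benjamini-Hochberg over all tested genes, threshold 0.05. A prior count of 2 shrank the log2 fold changes, and the SE came from the F statistic. Folds are ratios of mean TMM-scaled CPM. Against a group at 0, a floor of 3 counts per library gave a lower bound, and over 1 to 3 counts the ratio has an exact 95% interval. Floors and intervals cover counting error only. The 7 genes, the lists and the tests were chosen with earlier results of these data known. All 7 genes are named throughout; other list genes could be named if they averaged at least 5 CPM in a group and were among the 4 with the smallest p of their list in a comparison. Gene positions and 3′ UTRs are from GENCODE M21 and promoters from RefSeq. The test was tried on simulated counts. Replicates of each group differed by far more than sampling noise (chi-square per degree of freedom 60.6 to 305).

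Alternatives were RLE scaling, DESeq2 1.42.0, limma-voom (limma 3.58.1), no filter, a mean of at least 50 counts, only the groups compared, mitochondrial genes left out, log2(FPKM + 1), a replicate block in KO libraries and each library left out in turn. Fits that left out a library were filtered anew and tested 18496 to 18692 genes. A fit of the CD4+ libraries alone was added after the data were seen.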

Additional observations from a re-analysis of the deposited data

How the results depend on the processing

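Depth did not limit Ccl5, but 3 counts (0.13 to 0.248 CPM) limit statements on Ccl3, Ccl4, Cxcl2 and Cxcl16 in KO Ctl libraries. Counts of calls depended on the tool and the libraries fitted, and the cause was not tested. Counts below are over all genes in the order diet in γδ, WT CD4+ and KO CD4+ T cells, genotype on Ctl and MCD, cell type on Ctl and MCD, diet averaged over CD4+ genotypes, and the differences of diet effects between genotypes and cell types. They were 0, 0, 6, 4, 0, 106, 430, 6, 0 and 0 as reported. DESeq2 called 2105, 40, 266, 122, 39, 917, 2887, 196, 71 and 645. Without a filter they were 555, 19, 105, 52, 11, 354, 1071, 106, 44 and 113. Limma-voom moved the first, the third, the sixth, the seventh and the ninth by over 1.5 times, to 63, 19, 244, 787 and 1. Log2(FPKM + 1) gave 148 for diet in γδ, 15 for diet in KO, 2 and 5 for genotype on Ctl and MCD, 287 and 659 for cell type on Ctl and MCD and 11 for the CD4+ average. A mean of at least 50 counts gave 3 for diet in KO and 662 for cell type on MCD. Fitting only the groups compared gave 2 for genotype on Ctl, 9 for cell type on MCD, 54 for the CD4+ average and 1 for the difference between genotypes. The CD4+ libraries alone, chosen after seeing the data, gave 89 for diet in KO, 1 for genotype on MCD, 54 for the average and 1 for the difference between genotypes. With each library left out in turn the ranges were 21 to 1683, 0 to 1, 6 to 136, 7 to 27, 0 to 1, 69 to 504, 108 to 2386, 4 to 96, 0 to 21 and 0 to 733.

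Of the 7 genes, DESeq2 called Cxcl10 for diet in γδ (1), Ccl3, Ccl4 and Ccl5 for diet in KO and for the average (3 each), 3 for cell type on either diet, and 1 for each difference of diet effects. Without a filter 2 were called for diet in KO, 1 for genotype on Ctl, 3 for cell type on either diet and for the average, and 1 between genotypes. Limma-voom called 0 for diet in KO (Ccl5 adjusted p = 0.0882) and 0 for the average (0.0845). Only the groups compared gave 2 for cell type on Ctl, 0 on MCD (Ccl5 adjusted p = 0.16) and 2 for the average, and for diet in KO called Ccl3 and not Ccl5 (0.071). The CD4+ libraries alone gave 2 for diet in KO and 2 for the average. With a library left out, 0 to 3 were called for diet in KO, cell type on MCD and the average, 1 to 2 for cell type on Ctl and 0 to 1 between genotypes. A replicate block in the 4 KO libraries gave 80 genes and 2 of the 7, against 6 genes and 1 of the 7 with no block. The deviations of same-numbered KO libraries had a correlation of -0.00589 across genes. A single value over all genes cannot tell whether these libraries are paired, and the other groups share fewer numbers.

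Outside the fits that left out a library, 561 of 599 fold changes of the 7 genes kept direction and side of the threshold, 27 gained a call, 5 lost one and 6 turned. Those were Ccl3 for cell type on Ctl (-0.30 with limma-voom, -0.11 with FPKM) and, for the differences of diet effects, Xcl1 (-0.52 and -0.58) and Ccl4 (0.013 with FPKM) between cell types and Cxcl16 (-0.031 with FPKM) between genotypes. With a library left out 784 of 840 kept both and 30 turned. Log2 ranges of those that turned were, for diet in γδ, -2.41 to 4.83 (Ccl3), -2.87 to 0.45 (Xcl1) and -0.13 to 7.62 (Cxcl2); for diet in WT, -0.34 to 2.08 (Ccl3); for diet in KO, -0.31 to 3.64 (Cxcl2) and -0.52 to 1.11 (Cxcl10). For genotype on Ctl they were -0.20 to 0.15 (Ccl5) and -1.15 to 0.14 (Cxcl10), and on MCD -1.20 to 0.53 (Xcl1), 0 to 3.94 (Cxcl2) and -0.043 to 1.84 (Cxcl10). For cell type on Ctl they were -2.42 to 1.83 (Ccl3) and -0.73 to 3.22 (Cxcl2), and on MCD -2.66 to 2.94 (Ccl3) and -0.87 to 3.56 (Cxcl16). For the average they were -0.51 to 1.46 (Cxcl2) and -0.75 to 0.069 (Cxcl10), and between cell types -2.82 to 4.41 (Ccl3), -2.00 to 0.54 (Ccl4) and -2.27 to 1.03 (Xcl1).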
